A study of Mus musculus with 10 samples.

Results

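Midkine (Mdk) and pleiotrophin (Ptn) are the members of a small family of secreted, heparin-binding growth factors, and Ptprz1, Sdc3 and Lrp1 encode cell-surface proteins that bind them. These 5 genes were chosen by gene symbol, with results of these data already known, from the 17919 genes in the deposited tables. All 5 were found in every table and all 5 passed the minimum level in every comparison, so none was lost to a filter.

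The cells were neural stem cells of ICR mice, taken from the ventral midbrain at embryonic day 10, a source of midbrain dopamine neurons. They carried a lentivirus that expressed the RNA-binding protein Lin28a or, in the control, a mock virus, and were passaged every 4 days. Cellular RNA (RNA-seq) was sequenced from control and Lin28a cultures at passage 1 (P1) and passage 3 (P3), and polysome RNA, which is RNA carrying several ribosomes, from both cultures at P3. Each of the 4 RNA-seq and 2 polysome groups held 1 library, so no test was possible and every difference describes these libraries. The promoter that drove Lin28a, the share of transduced cells and the number of embryos behind a culture were not stated in the labels.

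Both ligands are basic proteins that hold to the sulfated sugar chains of proteoglycans and are known in the developing brain for effects on the growth, survival and outgrowth of neural cells. Ptprz1 is a receptor tyrosine phosphatase that is itself a chondroitin sulfate proteoglycan, is made by radial glia, astrocytes and oligodendrocyte precursors, and is inhibited when pleiotrophin binds it. Sdc3 (syndecan-3, or N-syndecan) is the neural heparan sulfate proteoglycan of the syndecan family, and Lrp1 is a large endocytic receptor of the LDL receptor family that also takes up apolipoprotein E.

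Lin28a transcript was at 0.128 and 0.0620 FPKM (fragments per length of the transcript and per library) in the P1 and P3 controls and at 478 and 104 FPKM in the P1 and P3 Lin28a cultures. All 8 neural stem cell markers on the list used here, such as Nes and Sox2, were at 17.1 or more in each of the 6 libraries. None of 5 microglial markers reached 1 in any library, and 1 of 5 endothelial markers did, Kdr, which was at 3.03 to 8.70. Between 12028 and 12461 genes reached a level of 1 per library.

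Pleiotrophin and Ptprz1 were the members past 2-fold with passage in both cultures, and for that reason the RefSeq sequence just upstream of each start is shown here. The RefSeq promoter table (GRCm38.p6) matched 4 of the 5 members, all but Mdk. Each line gives 250 bases that end at the base before the transcript start, 5′ to 3′ on the gene's own strand. Capitals mark, on either strand, GGGCGG (a core motif of Sp1), CCAAT (of NF-Y), TATAAA (of the TATA-binding protein) or CAGCTG (one form of E-box), with no overlap between different motifs.
Ptn, chr6:36810180-36810429, minus strand: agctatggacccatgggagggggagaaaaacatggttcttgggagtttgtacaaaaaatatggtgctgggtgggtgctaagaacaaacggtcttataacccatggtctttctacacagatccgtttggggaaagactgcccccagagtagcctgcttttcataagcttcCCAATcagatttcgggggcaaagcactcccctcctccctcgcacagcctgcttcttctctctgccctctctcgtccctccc
Ptprz1, chr6:22875252-22875501, plus strand: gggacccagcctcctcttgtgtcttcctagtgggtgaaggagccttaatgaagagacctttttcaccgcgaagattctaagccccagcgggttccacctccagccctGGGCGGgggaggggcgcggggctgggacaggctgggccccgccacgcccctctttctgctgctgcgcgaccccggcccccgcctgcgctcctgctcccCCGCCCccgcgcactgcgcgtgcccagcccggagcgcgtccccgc
The windows were unlike in base content. That of Ptn had 52.0% G and C, 5 CpG dinucleotides and 1 CCAAT, a motif found in 33.8% of 32851 windows of the same length. That of Ptprz1 had 71.6% G and C, 22 CpG and 2 GGGCGG, a motif found in 32.7% of those windows. The median window had 52.4% G and C and 6 CpG. Neither held TATAAA (12.4% of windows) or CAGCTG (13.0%), which says only that these letters are not in these windows. The windows of Sdc3 and Lrp1, members short of 2-fold that are not printed, held 3 and 1 GGGCGG.

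All 5 genes were among the more abundant, each standing above 70.9% or more of the 17919 genes in every library. In RNA-seq Ptn was highest in each of the 4 libraries and Lrp1 lowest, with Sdc3 always next to it. Mdk stood above Ptprz1 at P1 and below it at P3, in both cultures. With 1 library per group, neighbours in this order cannot be set against a spread between samples, and at P3 in Lin28a Ptprz1 (212 FPKM) and Mdk (205 FPKM) were close.

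**Figure D1:**
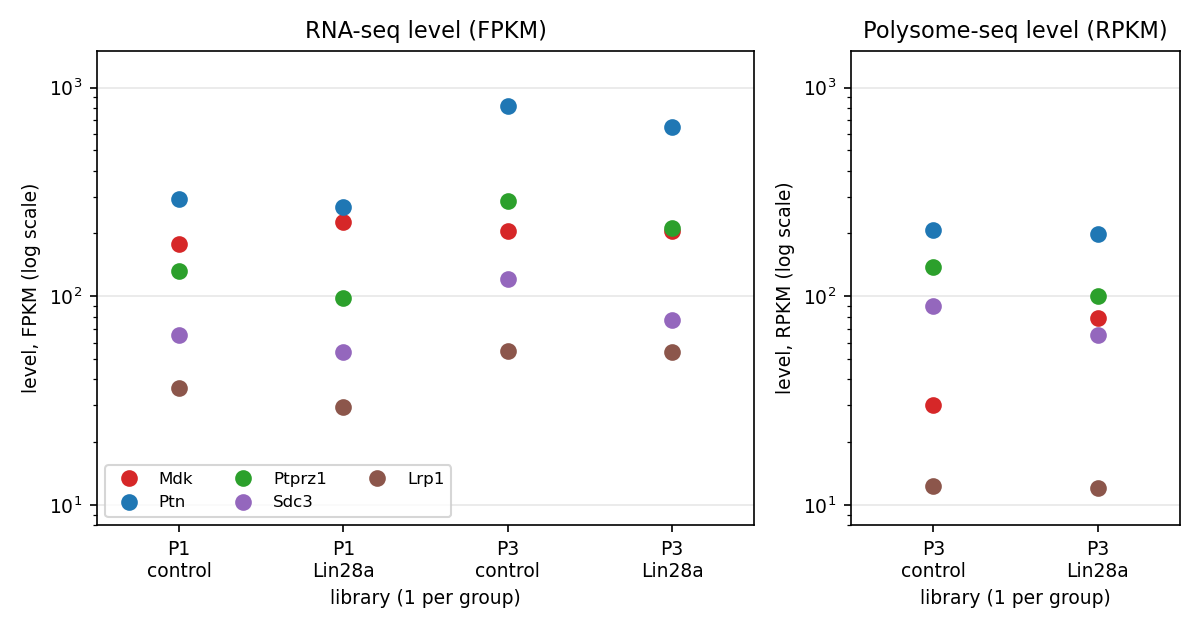
Levels of Mdk, Ptn, Ptprz1, Sdc3 and Lrp1 in the 4 RNA-seq libraries (left, FPKM) and the 2 polysome libraries (right, RPKM), each point 1 library, on a log axis. Mdk lay between 178 and 226 FPKM in all 4 RNA-seq libraries, and in polysomes at 30.3 RPKM in control and 79.0 RPKM in Lin28a.

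Passaging went with more pleiotrophin RNA, while midkine RNA differed little. Ptn went from 293 FPKM at P1 to 819 FPKM at P3 in control, and from 269 to 649 FPKM in the Lin28a culture. Both P3 libraries were thus above both P1 libraries. The log2 ratio of P3 to P1, taken after adding 1 to each value, was 1.48 in control and 1.27 in Lin28a.

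Mdk was measured at 178 FPKM (P1) and 207 FPKM (P3) in control, and at 226 FPKM (P1) and 205 FPKM (P3) with Lin28a. Its P1 and P3 values overlapped across cultures, with log2 ratios of 0.22 in control and -0.14 in Lin28a. When all libraries were scaled to a common sum the control ratio was -0.11, so its sign rests on the scaling. The ratio of Ptn to Mdk went from 1.65 at P1 to 3.97 at P3 in control, and from 1.19 to 3.17 in Lin28a.

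The 3 receptors were higher at P3 than at P1 in both cultures. Ptprz1 went from 132 to 285 FPKM in control and from 98.0 to 212 FPKM in Lin28a. Its log2 ratios of 1.11 in control and 1.11 in Lin28a differed by less than 0.01. Sdc3 went from 65.3 to 121 FPKM in control and from 53.9 to 77.4 FPKM in Lin28a. Its log2 ratios were 0.88 and 0.51, so both P3 libraries again stood above both P1 libraries.

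Lrp1 went from 36.2 to 54.8 FPKM in control and from 29.6 to 54.0 FPKM in Lin28a. Its log2 ratios were 0.59 in control and 0.85 in Lin28a, and the 2 P3 levels nearly coincided. It was the member with the largest gain in the Lin28a culture relative to control, by 0.26 on the log2 scale.

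In control 2 of the 5 members, Ptn and Ptprz1, were higher past 2-fold (a log2 ratio of 1 or more) against 11.5% of 13011 genes, and none was lower, against 8.14%. In Lin28a the same 2 were, against 8.38% of 12850 genes, and none was lower, against 4.8%. The median ratio of the members was 0.88 in control and 0.85 in Lin28a, beside -0.00 and -0.01 over all genes. The P3 libraries carried larger sums of FPKM than the P1 libraries, and scaling to a common sum lowered every passage ratio, by about 0.33 in control and 0.23 in Lin28a. Ptprz1 was then at 0.78 and 0.87, short of 2-fold, beside a median over all genes of -0.30 and -0.23. Under that scaling the split of all called genes, 58.6% higher in control and 63.6% in Lin28a, became 33.0% and 42.9%.

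Cell type markers moved with passage as well. Of the 8 neural stem cell markers 2 were higher past 2-fold in control, Hes5 (1.89) and Fabp7 (1.17), beside 11.5% of all genes. Another 2 were lower, Nes (-1.17) and Prom1 (-2.31), beside 8.14%. The summed level of 6 astrocyte markers went from 285 FPKM at P1 to 1478 at P3 in control and from 202 to 886 in Lin28a, and that of 8 oligodendrocyte lineage markers from 170 to 1682 and from 102 to 1002. The 6 neuronal markers went the other way, from 694 to 64.6 and from 596 to 209, as did 6 ventral midbrain markers (202 to 45.2 and 200.0 to 76.7). The sum of 6 mesenchymal markers also fell (60.2 to 27.8 and 50.3 to 33.6), but its genes were mixed. In control 1 was higher and 5 were lower, and in Lin28a 2 and 4. Col1a2 was higher in both cultures (1.12 and 1.70) and Col1a1 in Lin28a (0.38). The part of these shifts in the values of Ptn and the receptors was not tested, and in bulk RNA a change in the share of a cell type and a change in RNA per cell cannot be told apart.

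At P1 the members differed little in RNA between the Lin28a and control libraries. The log2 ratios of Lin28a to control were 0.35 for Mdk, -0.13 for Ptn, -0.42 for Ptprz1, -0.27 for Sdc3 and -0.28 for Lrp1. None of the 5 passed 2-fold, as 0.231% of 12564 genes did in either direction. Mdk was the member on the higher side, above 96.6% of genes measured, and Ptprz1 was lower than all but 3.13%.

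At P3 the members were at or below the control in Lin28a RNA. The log2 ratios were -0.01 for Mdk, -0.33 for Ptn, -0.42 for Ptprz1, -0.64 for Sdc3 and -0.02 for Lrp1. None passed 2-fold, against 2.65% of 12716 genes in either direction. With a common sum Mdk was at 0.10 and Lrp1 at 0.09, so the sign of these 2 rests on the scaling, while Ptn (-0.22), Ptprz1 (-0.31) and Sdc3 (-0.53) were still lower. That scaling moved all P3 ratios by 0.12 and the share of higher genes among those called from 49.3% to 62.6%.

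Markers of other cell types differed in the same P3 comparison. All 6 astrocyte markers were lower with Lin28a (median log2 ratio -0.73, 2 past 2-fold), with a summed level of 1478 FPKM in control and 886 in Lin28a, and so were all 8 oligodendrocyte lineage markers (median -0.55, 1 past 2-fold; 1682 and 1002 FPKM). All 6 neuronal markers were higher, 5 past 2-fold (median 1.72), and all 6 ventral midbrain markers, 3 past 2-fold (median 1.17). Of all genes 1.31% were higher and 1.34% lower past 2-fold in this comparison. At P1 the 4 astrocyte and 7 oligodendrocyte lineage markers measured were lower too (medians -0.51 and -0.68), none past 2-fold. The part of these markers in the lower values of Ptn, Ptprz1 and Sdc3 was not tested.

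Sdc3 was the member with the lowest P3 ratio, below all but 4.94% of genes. The passage ratios of the 2 cultures differed (Lin28a minus control) by -0.36 for Mdk, -0.21 for Ptn, -0.00 for Ptprz1, -0.37 for Sdc3 and 0.26 for Lrp1. None passed 2-fold, against 2.45% of 13138 genes. The P3 comparison and the passage comparison in control share the P3 control library, so they are not separate observations.

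**Figure D2:**
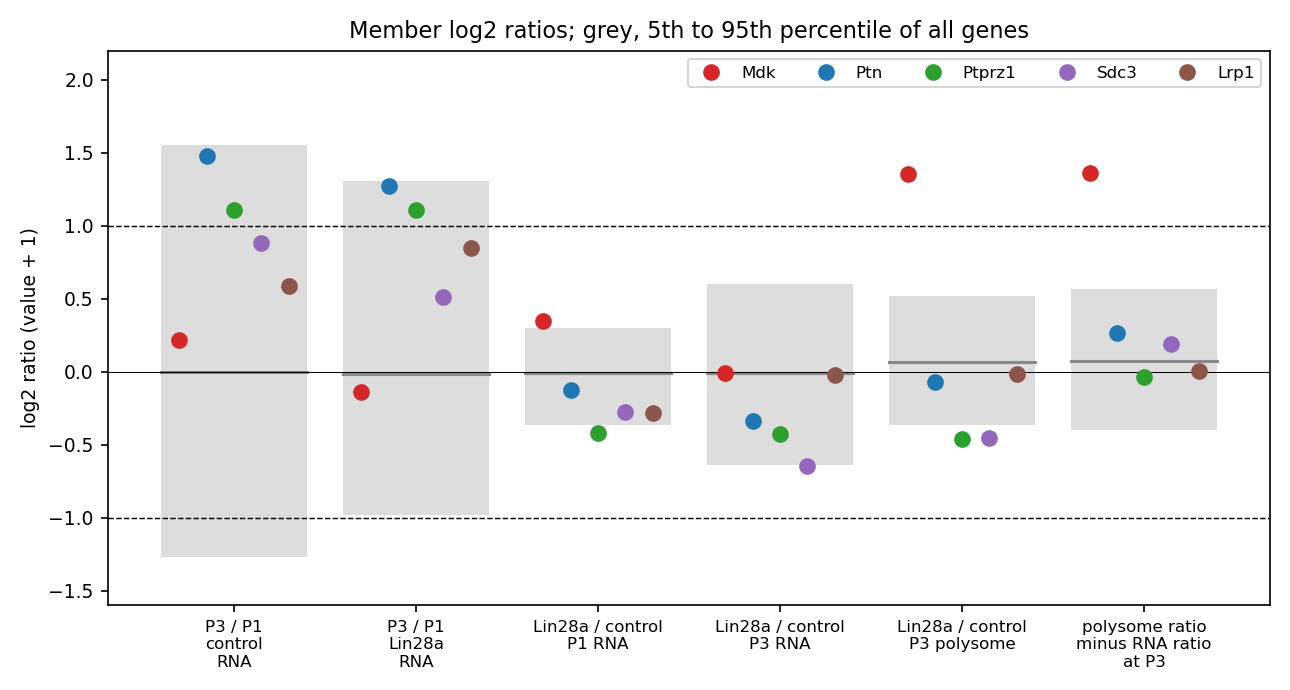
Log2 ratios (value + 1) of the 5 members in 5 comparisons of 2 libraries and, on the right, the polysome ratio minus the RNA ratio at P3; grey bars span the 5th to the 95th percentile of all genes measured, grey lines their median and dashed lines 2-fold. Mdk stands apart in polysomes, at 1.35, and Ptn and Ptprz1 are past 2-fold in both passage comparisons.

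In polysome RNA midkine was past 2-fold higher with Lin28a, and the other 4 members had ratios below 0, none past 2-fold. Mdk was at 30.3 RPKM (reads per length of the transcript and per library) in the control polysomes and 79.0 RPKM in the Lin28a polysomes, a log2 ratio of 1.35. Of the 5 members it alone was past 2-fold, which 0.952% of 12289 genes were in the higher direction and 1.07% in either. It ranked 32nd from the top of all genes, while its RNA at P3 differed by 1.01-fold.

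Both values of Mdk stand in the ratio of whole reads, 1026 in control and 2779 in Lin28a or a common multiple, once the relative depth of the libraries is taken out. The Lin28a polysome library was 1.04 times as deep. The ratio of the 2 RPKM values was 2.61, with an exact 95% interval of 2.42 to 2.80 from those read numbers. It covers counting error only, since reads are not independent molecules, and says nothing of how far a second culture would differ.

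The other ligand did not follow it. Ptn was at 208 RPKM in control polysomes and 198 in Lin28a, a log2 ratio of -0.07. The ratio of Ptn to Mdk was therefore 6.86 in control polysomes and 2.51 in Lin28a polysomes.

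Among the receptors, Ptprz1 had 139 RPKM in control against 101 with Lin28a (log2 ratio -0.46). Its ratio of 0.725 came from at least 1363 and 1027 reads, with an interval of 0.668 to 0.787 that covers counting error alone. Sdc3 had 89.8 RPKM in control against 65.3 with Lin28a (log2 ratio -0.45). Lrp1, at 12.3 and 12.1 RPKM, gave -0.02. Ptprz1 and Sdc3 were thus lower with Lin28a in polysomes as they were in RNA at P3 and at P1, all within 2-fold, and stood at the 2.80th and 3.04th percentile of polysome ratios.

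The polysome ratio minus the RNA ratio at P3 sets the polysome difference of a gene against that of its RNA. It was 1.36 for Mdk, 0.27 for Ptn, -0.04 for Ptprz1, 0.19 for Sdc3 and 0.00 for Lrp1, beside a median of 0.07 over 7817 genes at 5 or more in all 4 libraries. Mdk alone of the 5 was past 2-fold in the higher direction, as 0.358% of genes were, and ranked 6th. The labels do not say whether both assays drew on the same cells.

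Genes ranked above Mdk had another pattern. Rps27 (2.61), Snora28 (2.00), Dhrs1 (1.78) and Crip1 (1.42) had polysome ratios between -0.10 and 0.13 and were lower in Lin28a RNA, with RNA ratios of -2.53 to -1.29. Rps27 has near-identical pseudogenes and Snora28 is a small nucleolar RNA, so their values are uncertain. Of the 28 genes past 2-fold, 4 were past 2-fold in polysomes themselves, and Mdk had the largest polysome ratio of those. Among 2077 genes whose RNA ratio at P3 was within 0.1 of 0, 3 were higher past 2-fold in polysomes and Mdk ranked first. The limit of 0.1 was chosen after the values were seen.

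**Figure D3:**
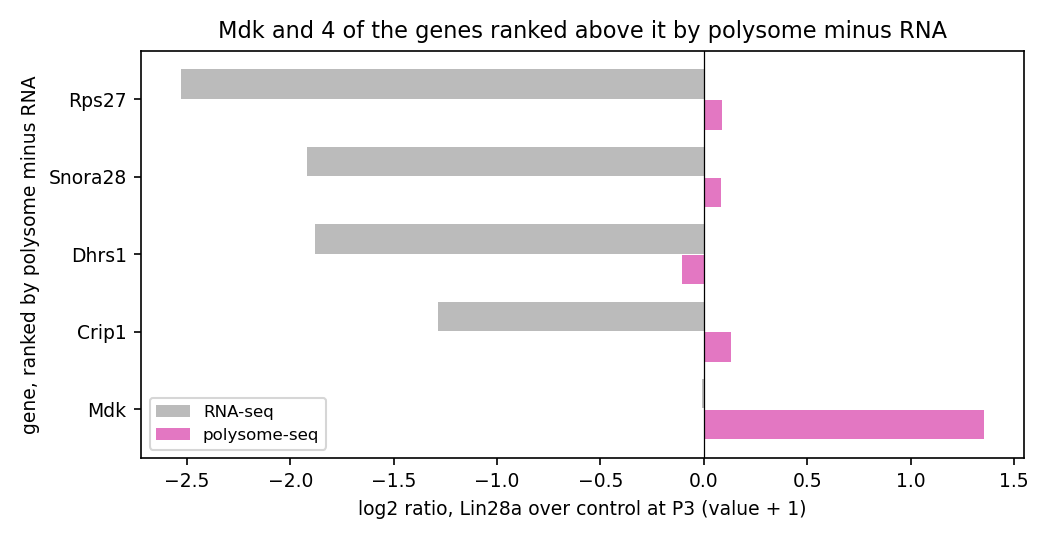
Log2 ratios of Lin28a to control at P3 in RNA-seq (grey) and polysome-seq (pink) for Mdk and 4 of the genes with a higher polysome minus RNA difference, bars from 0, 1 library per group. The 4 genes above Mdk have negative RNA bars of -1.29 or lower, whereas Mdk has a polysome bar of 1.35 and an RNA ratio of -0.01.

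Markers of other cell types also differed in the polysome comparison. Neuronal markers had a summed level of 28.7 RPKM in control and 91.4 in Lin28a, with 4 of 6 higher past 2-fold. Ventral midbrain markers had 51.1 and 98.9 RPKM, also with 4 of 6, beside 0.952% of all genes. Astrocyte markers had 173 RPKM in control and 125 in Lin28a, with all 5 measured lower, and oligodendrocyte lineage markers 283 and 193 RPKM, with 5 of 7 lower. In RNA-seq at P3 the neuronal sum was 64.6 FPKM in control and 209 FPKM in Lin28a. The part of these markers in the polysome values of Mdk, Ptprz1 and Sdc3 was not tested.

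Within one culture the members also differed in how their polysome level compared with their RNA level. Since the assays were counted in different ways, only the place among genes is read. In control Mdk stood at the 3.17th percentile, Lrp1 at the 7.04th, Ptn at the 8.16th, Ptprz1 at the 28.8th and Sdc3 at the 54.6th. In Lin28a Mdk was at the 14.8th, Ptn at the 8.38th, Lrp1 at the 4.96th, Ptprz1 at the 22.7th and Sdc3 at the 62.1st. Mdk moved from the lowest of the 5 to the third. Its place went from the 3.17th to the 14.8th percentile, and that of Sdc3, the next largest shift, from the 54.6th to the 62.1st.

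The genes with the most similar pattern were found by the root mean square difference of log2 values over the 6 libraries, with RNA-seq and polysome values each centred, among 7610 genes at 5 or more in all libraries. For Ptn they were Ethe1 (0.0344), Wipi1 (0.0459) and Acyp1 (0.0462), for Sdc3 Fam120c (0.0372), Srd5a1 (0.0463) and Abcc4 (0.0569), and for Lrp1 Lss (0.0229), Pitpnc1 (0.0371) and Dcaf6 (0.0402). Those of Ptprz1 included Adam9 (0.0257) and Dgkz (0.0667). Mdk had no gene as near, with Nnat at 0.187, Mycl at 0.207 and Ccdc115 at 0.215. Within the family Ptn and Ptprz1 were 0.18 apart, as were Ptprz1 and Sdc3, and Mdk was 0.52 to 0.73 from each of the other 4. Many other genes were nearer: Ptprz1 was the 325th nearest to Ptn, and Ptn the 307th nearest to Ptprz1.

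Genes of the wider pathway were described from 10 lists, some genes being on 2 of them. Of their 112 genes 100 were measured with passage in control, and of these 21 were higher and 13 lower past 2-fold, or 21.0% and 13.0%, beside 11.5% and 8.14% of all genes. The list counts with passage in control that follow are to be read against those 2 shares of all genes.

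Other receptors proposed for midkine and pleiotrophin gave no common direction with passage. Of 14 measured, 2 were higher and 2 lower past 2-fold in control, with a median of -0.55. Syndecan-4, Sdc4, another heparan sulfate proteoglycan, went from 7.75 to 54.5 FPKM in control (2.67), and the integrin subunit Itgb3 from 0.540 to 4.61 (1.86). The receptor tyrosine kinase Alk was low, with 1.21 FPKM at P1 and 0.270 at P3 in control, and 0.842 at P1 and 0.534 at P3 with Lin28a. Nucleolin, Ncl, a nucleolar protein that also binds midkine at the surface, was at 79.7, 54.4, 89.1 and 58.0 FPKM in the same order.

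Chondroitin sulfate proteoglycans, the matrix class to which Ptprz1 belongs by its sugar chains, were higher with passage. All 5 measured were higher, 4 past 2-fold in control and 5 in Lin28a, with medians of 2.21 and 2.18. With passage in Lin28a 8.38% of all genes were higher past 2-fold. Brevican, Bcan, went from 51.9 to 329 FPKM in control (2.64) and neurocan, Ncan, from 73.0 to 392 (2.41). With Lin28a at P3, 4 of these 5 were lower in RNA, 1 past 2-fold (Bcan, -1.11), and all 5 were lower in polysomes, none past 2-fold (median -0.54). Of all genes 1.34% were lower past 2-fold in that RNA comparison, and 1.07% were past 2-fold in either direction in polysomes. Cspg5, a membrane-bound member of the class, was at 140 FPKM in P3 control and 71.8 in P3 Lin28a (-0.95).

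Proteins that bind Ptprz1 were higher past 2-fold with passage in control in 3 of 7 cases and lower in 1 (median 0.97). The matrix protein tenascin-R, Tnr, went from 0.687 to 15.6 FPKM (3.30), and the neuronal adhesion molecule L1cam from 11.8 to 0.981 (-2.69). Of 5 measured substrates, 1 was higher past 2-fold (the focal adhesion protein Pxn, 1.03) and 1 lower (the scaffold Magi1, -1.23). Of the 12 other receptor phosphatases 1 was higher and 3 were lower, among them Ptprt (-1.38) and Ptprk (-1.35).

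In the LDL receptor family 1 of 12 was higher past 2-fold with passage in control, the VLDL receptor Vldlr (1.40), and 1 lower, the reelin receptor Lrp8 (-1.85). Of 10 known Lrp1 ligands 5 were higher and 2 lower (median 0.98). With Lin28a at P3 2 were lower past 2-fold in RNA, beside 1.34% of all genes. Apoe, which carries lipids to Lrp1, went from 56.0 to 3154 FPKM in control and from 47.6 to 1218 FPKM in Lin28a. Its passage ratio in control was 5.79, beside 0.59 for Lrp1 itself.

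The enzymes that build or trim the sugar chains were on 2 lists. Of 18 measured for chondroitin sulfate, 4 were higher and 1 lower past 2-fold with passage in control (median 0.30), among them the sulfotransferases Ust (1.87) and Chst7 (1.69). Chst7 was also lower with Lin28a at P3, at 4.64 against 12.4 FPKM (-1.25). Of 16 measured for heparan sulfate none was higher and 2 were lower (median -0.17). These were the sulfotransferase Hs6st2 (-1.72) and Sulf1 (-3.72), a sulfatase that trims the chains.

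With Lin28a at P3, 4 of the wider genes were lower and 0 higher past 2-fold in RNA among 98 measured, and 0 in either direction in polysomes among 96. The 4 lower genes were 4.08% of those measured, beside 1.34% of all genes lower and 1.31% higher in that RNA comparison. In polysomes 1.07% of all genes were past 2-fold, a rate at which 96 genes would hold about 1. The nearest in polysomes were Gpc3 (0.98), a glypican, and Sulf1 (0.97), and on the lower side Chst7 (-0.90). Their control and Lin28a levels were 4.30 and 9.49, 21.8 and 43.7, and 9.35 and 4.53 RPKM. These counts rest on the pseudocount of 1. With 0.1, 2 wider genes were higher and 1 lower in polysomes, beside 249 and 61 of 12289 genes. In RNA at P3, 3 were then higher and 6 lower, beside 343 and 333 of 12716. The heparan sulfate proteoglycan Gpc2, a midkine receptor of young neurons, was at 0.75 in polysomes and 0.66 in RNA. In the polysome ratio minus the RNA ratio, 2 of 68 wider genes measured were higher past 2-fold and 0 lower. That was 2.94% higher, beside 0.358% of all genes. They were the Lrp1 ligand Clu (1.09) and Chpf (1.01), of chondroitin sulfate synthesis. Clu was at -1.17 in P3 RNA and -0.08 in polysomes, and Chpf at -0.80 and 0.21.

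**Figure D4:**
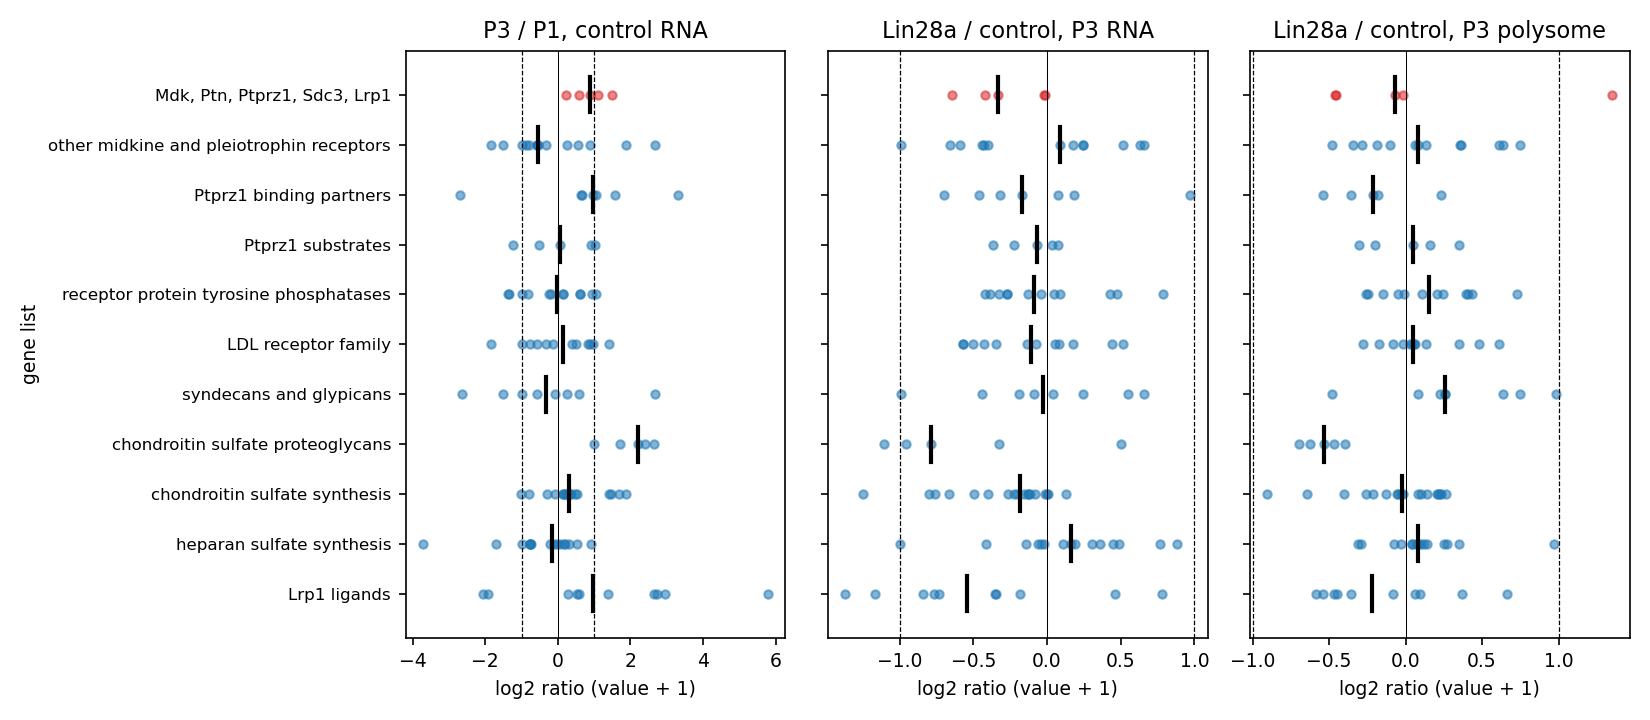
Log2 ratios (value + 1) of single genes (points) and list medians (black bars) for the 5 members (red) and the 10 wider lists (blue) in 3 comparisons of 2 libraries, with dashed lines at 2-fold and a separate axis range in each panel. Chondroitin sulfate proteoglycans have a median of 2.21 with passage in control and -0.54 with Lin28a in polysomes, where Mdk is the point past 2-fold.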

How the data were processed

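RNA-seq values were deposited by the authors as 1 FPKM value per RefSeq gene, and polysome values as RPKM. The headers name no unit. Bowtie 1.0.0, TopHat2 2.0.6, Cufflinks 2.1.1 and build mm9 are named per the submitters' processing notes, without roles. FPKM was read from Cufflinks and the values, RPKM from low genes stepping in whole reads: after the relative depth was removed, 74.9% of 15660 polysome ratios between the 2 libraries were ratios of whole numbers up to 3000, within 1e-09. Total depth is unknown. The labels describe the libraries both as poly(A)-selected and as made with a total RNA kit.

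Log2 ratios used a pseudocount of 1, which understates changes of low genes, for genes that reached 1 in either library. Members were named in every comparison, and from each wider list up to 2 genes with the largest ratios in 3 comparisons, besides Alk and Ncl. The members, lists and alternatives were chosen with earlier results of these data known. Small RNA tables hold no rows of these genes and were not used. The calculation was tested on simulated data, copies of a single library without noise and with set changes in the Lin28a polysome values. That checked the arithmetic only and not how single libraries vary. Alternatives changed the pseudocount, the minimum level and the scaling. Calculations ran in Python 3.11.15 (pandas 2.3.3, numpy 2.4.6, scipy 1.17.1), and figures were drawn with matplotlib 3.10.9. The recovery of whole polysome reads, their counting intervals, and the tolerances for calling a value without replicates unmoved were chosen after the data were seen. Some genes that these rules pick are not reported here.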

Additional observations from a re-analysis of the deposited data

Results flagged for a closer look

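Midkine showed opposite signs in 3 pairs of comparisons, each from single libraries, and none of these differences was tested. With passage its log2 ratio was 0.22 in control and -0.14 in Lin28a, a difference of -0.36. The same 4 libraries give the Lin28a ratio as 0.35 at P1 and -0.01 at P3, so the difference is again -0.36. With Lin28a at P3 it was -0.01 in RNA and 1.35 in polysomes, a difference of 1.36. Scaled to a common sum, none of the 3 pairs had opposite signs. The passage ratios were then -0.11 and -0.37, the Lin28a ratios in RNA 0.36 at P1 and 0.10 at P3, and the polysome ratio 1.27.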

How the results depend on the processing

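No paired analysis was possible because each group held 1 library. Mdk was past 2-fold in polysomes, and in the polysome ratio minus the RNA ratio, under every alternative run for them. Changing the minimum level could not alter these values, since Mdk was above every minimum used. The polysome ratio was 1.38 with a pseudocount of 0.1, 1.29 with the median of all genes set to 0 and 1.27 with a common sum. For the polysome ratio minus the RNA ratio the same pseudocount and median settings gave 1.39 and 1.29. A common sum was not run for it. Scaling to a common sum left 1 member, Ptn, past 2-fold with passage in control and 1 in Lin28a, against 2 and 2. It also gave 20 wider genes lower with passage in control against 13, and in polysomes 1 higher and 1 lower against 0 and 0. A pseudocount of 0.1 gave 21 lower against 13 with passage in control, 3 higher against 0 for Lin28a at P3 in RNA, 2 higher and 1 lower against 0 and 0 in polysomes, and 8 higher against 2 for the difference of the passage ratios. With the median of all genes set to 0, 1 wider gene was higher in the polysome ratio minus the RNA ratio against 2. The other 151 counts and percentiles kept their value within 1.5 times or 5 percentile points. Part of these could not have changed. Setting the median to 0 cannot move a percentile, and all 5 members are above every minimum used. With a pseudocount of 1, genes below 1 in both libraries cannot pass 2-fold, so lifting the filter adds no calls between 2 libraries. No setting reversed the sign of a member past 2-fold. Depth is unknown, so no interval could be given for RNA-seq values.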

Other observations

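Besides Mdk, the genes past 2-fold both in polysomes and in the polysome ratio minus the RNA ratio were Nnat, Id4 and Igsf21, named after their values were seen. Id4, an inhibitor of basic helix-loop-helix factors, was at 7.12 and 16.7 RPKM in control and Lin28a polysomes and at 58.1 and 53.8 FPKM in P3 RNA. Nnat, an imprinted gene of the developing brain, had log2 ratios of 1.26 in polysomes and 0.08 in RNA, and Igsf21, which encodes a synaptic adhesion protein, 1.08 and 0.05. Nnat was also the gene nearest to Mdk over all 6 libraries.

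The paired extracellular sulfatases that trim heparan sulfate, the sugar both ligands bind, had unlike values. Sulf1 went from 182 to 12.9 FPKM with passage in control and from 166 to 24.6 FPKM in Lin28a, and Sulf2 from 109 to 206 and from 101 to 102 FPKM, a log2 ratio of 0.02 in Lin28a, and it was past 2-fold in none of these comparisons. With Lin28a at P3 the log2 ratio in RNA was 0.88 for Sulf1, while Sulf2 was lower. Its deposited values, 206 FPKM in P3 control and 102 FPKM in P3 Lin28a, are just past 2-fold apart. With 1 added to each value it was just short of 2-fold. In polysomes the log2 ratio was 0.97 for Sulf1 and -0.29 for Sulf2.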
